A study of Mus musculus with 14 samples.

Results

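The genes described here were grouped as those of the extracellular matrix and of proteins that build, bind or cut it. The group also holds proteins that act inside cells, such as the serpins Serpinb6a and Serpinh1, so not all are secreted stromal products. The genes were chosen by symbol: collagens, laminins, nidogens, matrix metalloproteases and their tissue inhibitors, ADAMTS proteases, serpins, insulin-like growth factor (IGF) binding proteins, and Fn1, Mgp, Sparc, Dcn, Bgn, Vcan and P4ha1. The array carried 54 such genes, and 53 of the 6288 measured genes with a single symbol belonged to them, because Adamts19 had no value. They were read by 65 probes: 43 genes by 1 probe, 8 by 2 and 2, Adamts17 and Lamb1, by 3.

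The study compared spleens of 2 inbred mouse strains, AcB55 (6 arrays) and AcB61 (8 arrays), with spleens of A/J mice, which were labelled in the other channel of each of the 14 arrays. AcB55 and AcB61 are recombinant congenic strains, whose genome is mostly that of A/J with segments of C57BL/6, so that A/J is both the comparator and the main parent. The labels give no transgene, treatment, age, sex or infection status, and do not say whether arrays shared a mouse or an RNA pool. Each value is a log2 ratio of strain to A/J, so -1 on this scale is a halving, and the base of the logarithm was taken to be 2, which the percentages of the A/J level given here depend on. A value above 0 is taken to mean more RNA in the strain than in A/J. That direction is likely, because the labels give the strain as channel 1 and A/J as channel 2 throughout, but which dye a channel carried is not given. A/J was never hybridised against A/J, and p-values rest on variation from array to array, which may be technical. How much variation among A/J mice it holds depends on which A/J RNA was on each array, and that is not given. A ratio carries no level, so the labelled tissue could not be checked against absolute levels of spleen genes.

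The matrix of the spleen is laid down mainly by fibroblastic reticular cells, smooth muscle of the capsule and trabeculae, and endothelium. Fibrils of collagen types I and III are wrapped by networks of reticular cells, basement membranes of collagen type IV, laminin and nidogen line the sinuses, and small proteoglycans such as decorin and biglycan bind fibrils and growth factors. Metalloproteases cut these proteins, their tissue inhibitors hold the proteases in check, serpins block serine proteases, and IGF binding proteins carry or sequester IGFs. Most of these transcripts come from cells that are a small minority in a spleen. In whole tissue, fewer cells of a type and less RNA per cell cannot be told apart.

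More of the 53 genes were lower than higher in both strains. In AcB55, 13 of 53 fell and none rose at an adjusted p of 0.05 (limma, Benjamini-Hochberg over 13045 features), where 10.9% of all features fell and 9.77% rose. At an unadjusted p of 0.05 (limma), 16 were lower and 2 higher in AcB55, and 19 lower and 4 higher in AcB61. The share of all features at that threshold was not taken, so these counts have nothing to be set beside. In AcB61, 15 fell and 3 rose, where 13.3% of all features fell and 10.5% rose. The counts by role and by list given below were not tested against these shares. The median of the 53 was -0.078 in AcB55 and -0.033 in AcB61, beside -0.002 and -0.001 over all features, and 41 and 36 of the 53 means lay below 0, beside 50.7% and 50.2% of all features. Both comparisons share A/J as the other channel, so their values are set side by side here and are not independent of each other. Between the strains, 4 of the 53 differed, 2 of them higher in AcB61 and 2 lower, which is 7.55% beside 12.3% of all features (5.29% higher and 6.98% lower). Igfbp3, Igfbp5, Serping1, Dcn, Bgn and Col1a2 were among the genes that fell in AcB55 and also among those that fell in AcB61. The 3 that rose in AcB61 were Vcan, Adamts17 and Col3a1, and Col3a1 fell in AcB55.

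**Figure D1:**
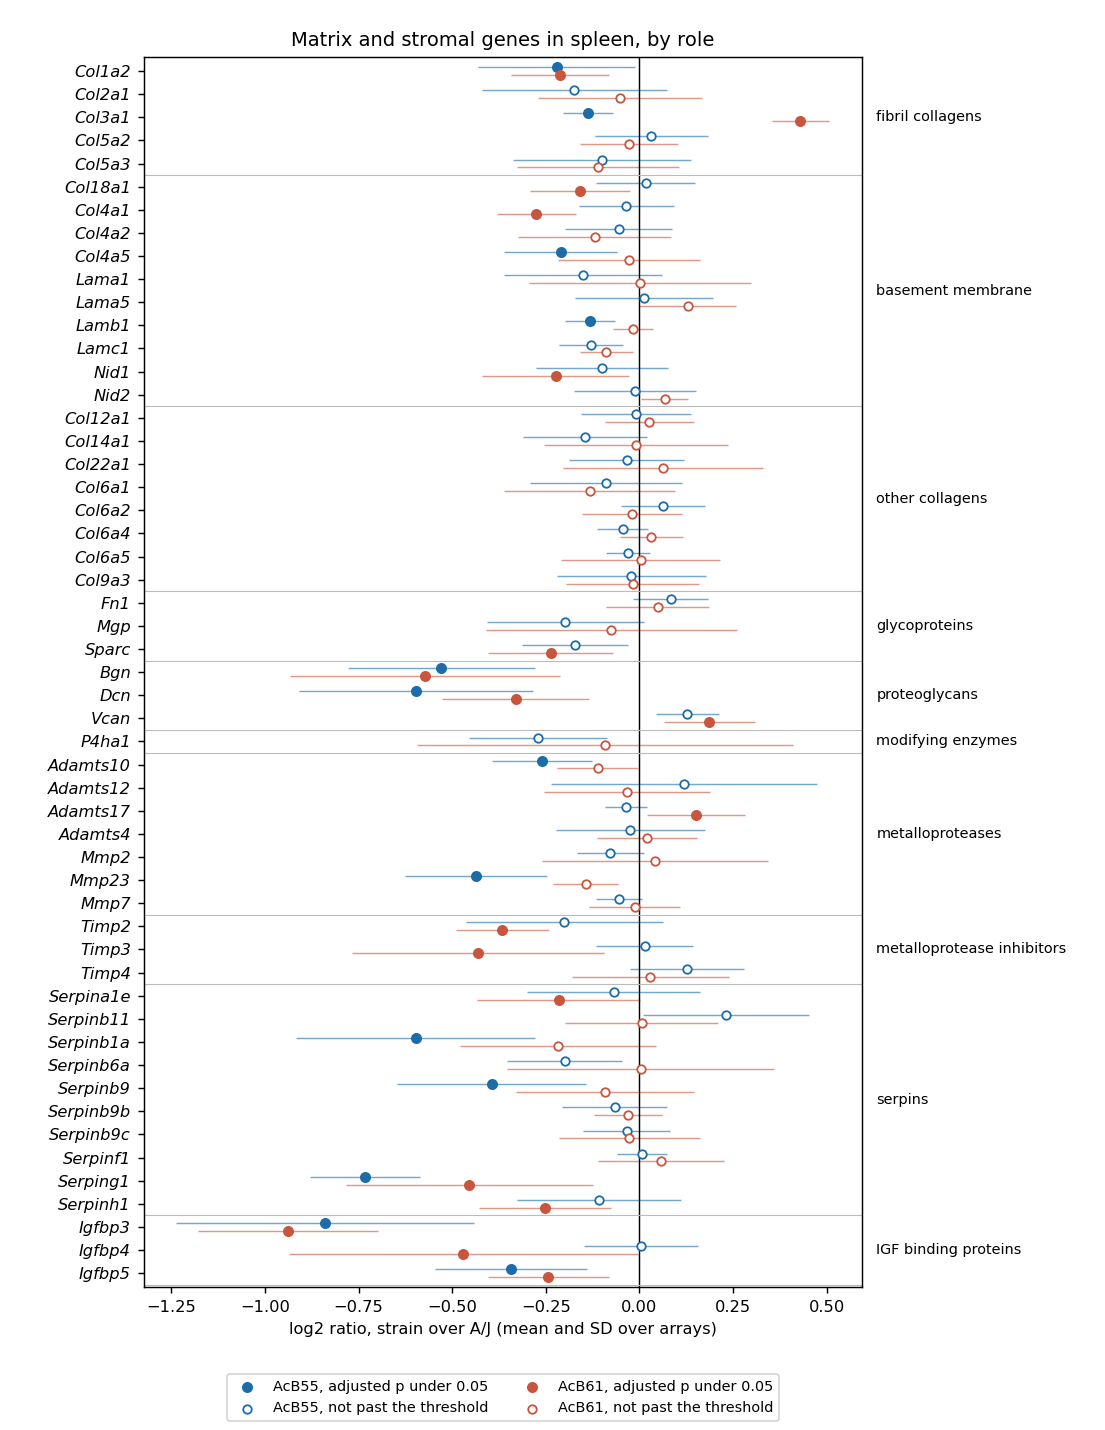
Mean log2 ratio to A/J of each of the 53 genes, grouped by role, in AcB55 (blue) and in AcB61 (red), with bars of 1 SD over arrays; filled points passed an adjusted p of 0.05 and open points did not. Igfbp3 has the lowest mean in each strain, at -0.84 and -0.94, and Col3a1 is the gene whose calls have opposite signs.

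The arrays of AcB61 did not vary alike. Over all features, after probes of a gene were averaged, replicates 3, 5 and 7 correlated with each other at 0.71 to 0.79, and replicates 2, 6 and 8 at 0.79 to 0.84, but arrays of one set correlated with those of the other at -0.08 to 0.16. Replicates 1 and 4 correlated with either set at 0.37 to 0.64. AcB55 replicates 3 and 4 have titles that end in b, a mark that is not explained, and AcB55 replicates 1 and 2 had been set apart in earlier work on these data. For the 53 genes, fits without each of these sets are given beside the gene where a call changed. Calls of the list genes and cell markers given further below were not followed in these fits. Both strains share 1 estimate of the spread, so leaving out AcB61 arrays can change an AcB55 call while its mean stays as it was. The part of the dye was not tested.

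Dcn and Serping1, which fell in both strains, had no promoter window in the reference used. Col4a1 and Mmp23, which differed between the strains, were not chosen for display. The promoters of 6 other genes are shown: Igfbp3, Igfbp5, Bgn and Col1a2 fell in both strains, and Timp3 and Col3a1 differed between them. Each is the 250 bases upstream of 1 RefSeq transcript start in GRCm38.p6 (for Igfbp3 a start inside the span of the gene, not its outermost one), read 5′ to 3′ on the strand of the gene, at chr11:7213924-7214173 (minus strand) for Igfbp3, chr1:72874866-72875115 (minus) for Igfbp5, chrX:73483351-73483600 (plus) for Bgn, chr6:4505368-4505617 (plus) for Col1a2, chr10:86300162-86300411 (plus) for Timp3 and chr1:45311288-45311537 (plus) for Col3a1. Capitals mark matches on either strand to the TATA box (TATANA), the CCAAT box, the GC box (GGGCGG) and the AP-1 site (TGANTCA).
Igfbp3: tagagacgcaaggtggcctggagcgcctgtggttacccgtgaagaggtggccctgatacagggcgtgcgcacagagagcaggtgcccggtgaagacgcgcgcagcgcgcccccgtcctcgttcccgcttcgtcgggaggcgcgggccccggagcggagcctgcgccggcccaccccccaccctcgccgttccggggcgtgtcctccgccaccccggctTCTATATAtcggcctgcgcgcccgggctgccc
Igfbp5: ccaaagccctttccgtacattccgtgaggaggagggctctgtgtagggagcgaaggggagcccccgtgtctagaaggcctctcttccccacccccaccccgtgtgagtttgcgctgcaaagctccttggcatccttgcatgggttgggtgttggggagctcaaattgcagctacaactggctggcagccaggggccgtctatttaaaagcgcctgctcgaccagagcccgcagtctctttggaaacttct
Bgn: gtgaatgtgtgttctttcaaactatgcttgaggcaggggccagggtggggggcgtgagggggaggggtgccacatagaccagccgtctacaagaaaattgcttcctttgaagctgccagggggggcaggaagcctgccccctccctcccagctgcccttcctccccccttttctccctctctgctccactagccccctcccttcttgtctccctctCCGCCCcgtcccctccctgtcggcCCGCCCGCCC
Col1a2: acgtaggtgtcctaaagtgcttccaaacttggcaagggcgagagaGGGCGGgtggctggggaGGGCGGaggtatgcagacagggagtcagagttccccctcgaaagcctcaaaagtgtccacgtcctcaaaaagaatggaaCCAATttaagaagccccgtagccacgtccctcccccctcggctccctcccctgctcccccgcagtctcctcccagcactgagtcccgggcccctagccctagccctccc
Timp3: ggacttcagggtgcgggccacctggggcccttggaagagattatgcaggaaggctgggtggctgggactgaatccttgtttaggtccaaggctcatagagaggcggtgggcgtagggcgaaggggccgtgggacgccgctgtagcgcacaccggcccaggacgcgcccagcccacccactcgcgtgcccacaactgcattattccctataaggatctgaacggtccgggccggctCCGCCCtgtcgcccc
Col3a1: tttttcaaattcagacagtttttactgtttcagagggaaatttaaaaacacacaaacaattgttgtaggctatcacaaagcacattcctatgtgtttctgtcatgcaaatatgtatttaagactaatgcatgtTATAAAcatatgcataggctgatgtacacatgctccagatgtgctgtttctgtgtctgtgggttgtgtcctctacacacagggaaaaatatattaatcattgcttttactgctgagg

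Igfbp3 had a TATA match 30 to 25 bases before the start and an overlapping one at 32 to 27. Bgn had 3 GC boxes, at 34 to 29, 10 to 5 and 6 to 1 bases before the start, the last 2 overlapping. Col1a2 had a CCAAT at 109 to 105 and GC boxes at 205 to 200 and 188 to 183, Timp3 had a GC box at 15 to 10, Col3a1 had a TATA match at 117 to 112, and Igfbp5 had no match to these letters. Of the 53 genes, 36 had at least 1 window in the table, 42 windows in all. CCAAT was found in 18 of the 42 (42.9%, beside 33.8% of all 32851 windows), the GC box in 19 (45.2%, beside 32.7%), TATANA in 4 (9.52%, beside 22.6%) and the AP-1 site in 3 (7.14%, beside 6.75%). A match is a description of letters, and the arrays give no measure of binding.

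Of the 3 IGF binding proteins measured, 2 fell in AcB55 and 3 in AcB61. Igfbp3, the gene with the lowest mean of the 53 in each strain, encodes the main IGF carrier of serum, which endothelial and stromal cells also make. In AcB55 it ranged from -1.33 to -0.28 with a median of -0.92, and in AcB61 (n = 7) from -1.35 to -0.67 with a median of -0.89. It was below A/J on every array with a value in both strains, at 55.9% and 52.2% of the A/J level by the means of -0.84 ± 0.40 (SD, n = 6; limma adjusted p = 4.99e-05) and -0.94 ± 0.24 (n = 7; adjusted p = 1.09e-05). The ranges of the strains overlapped, and the difference was -0.099 (95% interval -0.42 to 0.23, adjusted p = 0.725). The AcB55 arrays marked b held the values nearest 0, -0.48 and -0.28, beside -1.33 to -0.83 on the others, and without them the AcB55 mean was -1.07.

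Igfbp5 encodes a binding protein that also attaches to matrix. It ranged from -0.67 to -0.090 (median -0.35) in AcB55 and from -0.50 to -0.012 (median -0.22) in AcB61, below A/J on every array. Its means were -0.34 ± 0.20 (n = 6, limma adjusted p = 0.00185) and -0.24 ± 0.16 (n = 8, adjusted p = 0.00795). The AcB61 call was lost without replicates 2, 6 and 8, at -0.20 and an adjusted p of 0.063.

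Igfbp4, a binding protein that inhibits IGF action, fell in AcB61, where it ranged from -1.24 to 0.24 (median -0.35; mean -0.47 ± 0.47, n = 8, limma adjusted p = 0.00518). The low values came from replicates 2, 6 and 8, at -1.24 to -0.75, whereas replicates 3, 5 and 7 gave -0.27 to 0.24. Without the first set the mean was -0.18 (adjusted p = 0.123), and without the second it was -0.72. In AcB55 it ranged from -0.16 to 0.25, with a mean of 0.004 ± 0.15 and an adjusted p of 0.991. The strains differed by -0.47 (95% interval -0.83 to -0.11), which did not pass (adjusted p = 0.078). Without AcB61 replicates 3, 5 and 7 the difference was -0.72 and passed (adjusted p = 0.00231).

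The small proteoglycans decorin and biglycan fell in both strains, and versican, a large one, rose in AcB61. Dcn, whose product coats collagen fibrils and limits their width, ranged from -1.11 to -0.23 (median -0.59) in AcB55 and from -0.58 to -0.029 (median -0.35) in AcB61. It was below A/J on all 14 arrays, with means of -0.60 ± 0.31 (n = 6, limma adjusted p = 0.000144) and -0.33 ± 0.20 (n = 8, adjusted p = 0.00576). The values of the strains overlapped, and their difference of 0.27 (95% interval 0.01 to 0.52) did not pass (adjusted p = 0.165).

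Bgn encodes biglycan, a relative of decorin that also binds fibrils. It ranged from -0.76 to -0.17 (median -0.61) in AcB55 and from -1.21 to -0.30 (median -0.39, n = 7) in AcB61, again below A/J wherever it was measured. The means were -0.53 ± 0.25 (limma adjusted p = 0.0023) and -0.57 ± 0.36 (adjusted p = 0.000746). In AcB61 the spread followed the array sets: replicates 3 and 7 gave -1.21 and -0.96 (replicate 5 had no value), and the set of 2, 6 and 8 gave -0.39 to -0.32. Without the first set the mean was -0.37, and without the second -0.74, and the call stood in both fits. Vcan was at 0.19 ± 0.12 in AcB61 (n = 8, adjusted p = 0.00582), above A/J on every array, and at 0.13 ± 0.084 in AcB55 (n = 6, adjusted p = 0.0977). Its AcB61 call was lost without replicates 2, 6 and 8 (0.13, adjusted p = 0.0887).

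**Figure D2:**
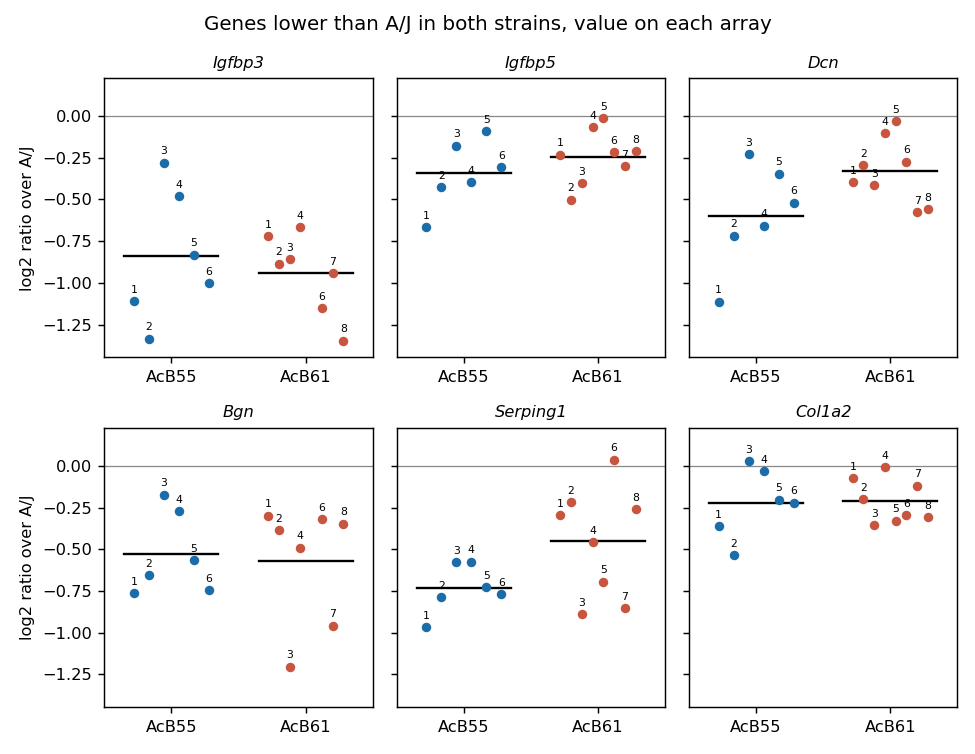
Log2 ratio to A/J on each array for the 6 genes that fell in both strains; each number is the replicate, and the line is the mean of the strain. Igfbp3, Igfbp5, Dcn and Bgn lie below 0 on every array with a value, while Serping1 has 1 AcB61 array and Col1a2 1 AcB55 array just above 0.

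Among the 10 serpins, 3 fell in AcB55 and 3 in AcB61, with Serping1 in both. Serping1 encodes the C1 inhibitor, which blocks the first proteases of complement and of the contact system. In AcB55 it ranged from -0.97 to -0.57 with a median of -0.75, and in AcB61 from -0.89 to 0.037 with a median of -0.38. The AcB55 arrays lay close together, at -0.73 ± 0.15 or 60.1% of A/J (n = 6, limma adjusted p = 3.55e-05), and AcB61 was at -0.45 ± 0.33 (n = 8, adjusted p = 0.000879). In AcB61, replicates 3, 5 and 7 gave -0.89 to -0.69 and replicates 2, 6 and 8 gave -0.26 to 0.037. The call stood without either set, at -0.24 (adjusted p = 0.0183) without 3, 5 and 7 and at -0.64 without 2, 6 and 8. The difference between the strains, 0.28 (95% interval 0.01 to 0.55), did not pass (adjusted p = 0.169), but without AcB61 replicates 3, 5 and 7 it was 0.49 and passed (adjusted p = 0.00224).

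Serpinb1a, an inhibitor of neutrophil elastase and related proteases, fell in AcB55, where it ranged from -0.92 to -0.057 (median -0.69; mean -0.60 ± 0.32, n = 6, limma adjusted p = 0.000371). The arrays marked b were its 2 highest, at -0.41 and -0.057. In AcB61 it was at -0.22 ± 0.26 (n = 8, adjusted p = 0.0887), and the gap of 0.38 between the strains did not pass (95% interval 0.09 to 0.67, adjusted p = 0.0767). The AcB61 value passed without replicates 3, 5 and 7 (-0.37, adjusted p = 0.0123) and, unchanged, without the arrays marked b (adjusted p = 0.046). The gap passed without AcB61 replicates 2, 6 and 8 (0.54, adjusted p = 0.00935) and without the arrays marked b (0.56, adjusted p = 0.0234). Serpinb9, which inhibits granzyme B, lies in the same cluster of genes and ranged from -0.77 to -0.13 in AcB55 (median -0.36; mean -0.40 ± 0.25, n = 6, adjusted p = 0.00383). In AcB61 it was at -0.092 ± 0.24 (n = 8, adjusted p = 0.467), with -0.45 to -0.25 in the set of 3, 5 and 7 and -0.016 to 0.15 in that of 2, 6 and 8. The strains differed by 0.30 (adjusted p = 0.105), and by 0.46 without AcB61 replicates 3, 5 and 7, which passed (adjusted p = 0.00619). Serpinb9b, its neighbour in gene order, and Serpinb9c lay between -0.066 and -0.027 in both strains, although close copies in this cluster may share probes and their identity is uncertain.

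Serpinh1 encodes the chaperone that folds procollagen in the endoplasmic reticulum. It fell in AcB61, from -0.62 to -0.039 with a median of -0.25 (mean -0.25 ± 0.18, n = 8, limma adjusted p = 0.00923), below A/J on every array, but not without replicates 2, 6 and 8 (-0.19, adjusted p = 0.0788). In AcB55 it was at -0.11 ± 0.22 (adjusted p = 0.372). Serpina1e, an alpha-1 antitrypsin gene with near-identical copies that the probe may also read, was at -0.22 ± 0.22 in AcB61 (n = 8, adjusted p = 0.0383), a call that was lost without replicate 3, 6, 7 or 8 alone (-0.21 to -0.15, adjusted p = 0.0652 to 0.121), without 3, 5 and 7 (-0.15, adjusted p = 0.175) and without 2, 6 and 8 (-0.23, adjusted p = 0.088). Serpinb11 was the highest serpin in AcB55, at 0.23 ± 0.22 (n = 6, adjusted p = 0.0508). It passed there without the arrays marked b (0.33, adjusted p = 0.0305) and without either AcB61 set (adjusted p = 0.0246 and 0.0228), and without AcB61 replicates 2, 6 and 8 the strains differed by -0.34 (adjusted p = 0.0319).

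Serpinf1 and Serpinb6a did not pass in either strain with all arrays. Serpinb6a, an intracellular serpin, split by set in AcB61, with -0.46 to -0.36 on replicates 3, 5 and 7 and 0.33 to 0.38 on 2, 6 and 8. Without 3, 5 and 7 it passed as lower in AcB55 (-0.20, limma adjusted p = 0.0245), as higher in AcB61 (0.25, adjusted p = 0.013) and between the strains (0.45, adjusted p = 0.00334).

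Of the 5 collagens of fibrils, Col1a2 fell in both strains by the mean of its probes, and Col3a1 had opposite calls by the mean of its own. Col1a2 encodes the second chain of type I collagen. It ranged from -0.54 to 0.027 (median -0.21) in AcB55 and from -0.36 to -0.007 (median -0.25) in AcB61, with means of -0.22 ± 0.21 (n = 6, limma adjusted p = 0.0266) and -0.21 ± 0.13 (n = 8, adjusted p = 0.0139). In AcB55 the arrays marked b were at -0.030 and 0.027 and the others at -0.54 to -0.20, and without replicates 1 and 2 the mean was -0.11 (adjusted p = 0.364). The AcB55 call was also lost without replicate 1, 2, 5 or 6 alone (-0.22 to -0.16, adjusted p = 0.0561 to 0.117). In AcB61 the call was lost without either set, at -0.18 both times (adjusted p = 0.0971 and 0.105). A different one of its 2 probes passed in each strain by limma, probe 12967 in AcB55 (-0.33, adjusted p = 0.0222) and probe 11941 in AcB61 (-0.26, adjusted p = 0.0259). In AcB61 the 2 probes split by set in opposite ways. Probe 11941 gave -0.68 to -0.38 on replicates 3, 5 and 7 and -0.15 to -0.009 on 2, 6 and 8. Probe 12967 gave -0.027 to 0.14 and -0.61 to -0.25 on the same sets, and was above 0 on 3 AcB61 arrays. The SD of their mean, 0.13, was therefore below that of either probe (0.29 and 0.28).

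Col3a1, the chain of type III collagen that forms the reticular fibres of the spleen, ranged from -0.21 to -0.057 (median -0.15) in AcB55 and from 0.36 to 0.60 (median 0.41) in AcB61. The ranges did not overlap, which held for 1 of the 53 genes (1.89%) beside 2.67% of all features. Its means were -0.14 ± 0.066 (n = 6, limma adjusted p = 0.0385) and 0.43 ± 0.077 (n = 8, adjusted p = 1.22e-06), and the strains differed by 0.57 (95% interval 0.44 to 0.69, adjusted p = 3.1e-05). The AcB55 call was lost without replicate 1, 4, 5 or 6 alone (-0.14 to -0.12, adjusted p = 0.0736 to 0.113), without replicates 1 and 2 together (-0.15, adjusted p = 0.0865) and without the arrays marked b (-0.14, adjusted p = 0.129). Col5a2, its neighbour in gene order with no protein-coding gene between, was at 0.031 ± 0.15 and -0.028 ± 0.13. Col2a1 and Col5a3 did not pass in either strain.

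The value of Col3a1 is a mean of 2 probes that did not measure alike. Probe 11902 was at 0.019 ± 0.24 in AcB55 and 0.86 ± 0.29 in AcB61, from 0.47 to 1.19, and the strains differed by 0.84 (limma adjusted p = 0.000894). Probe 12747 was at -0.29 ± 0.20 in AcB55 (adjusted p = 0.0466) and 0.001 ± 0.33 in AcB61, from -0.43 to 0.38, a difference of 0.29 that did not pass (adjusted p = 0.163). Both probes were higher in AcB61 than in AcB55 by their means. Across the AcB61 arrays they ran opposite to each other, with probe 12747 below 0 on replicates 3, 5 and 7 and above 0 on replicates 2, 6 and 8, so that the SD of their mean, 0.077, was far below that of either. The rise of Col3a1 in AcB61 therefore rests on probe 11902, and no single probe was called in both strains.

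**Figure D3:**
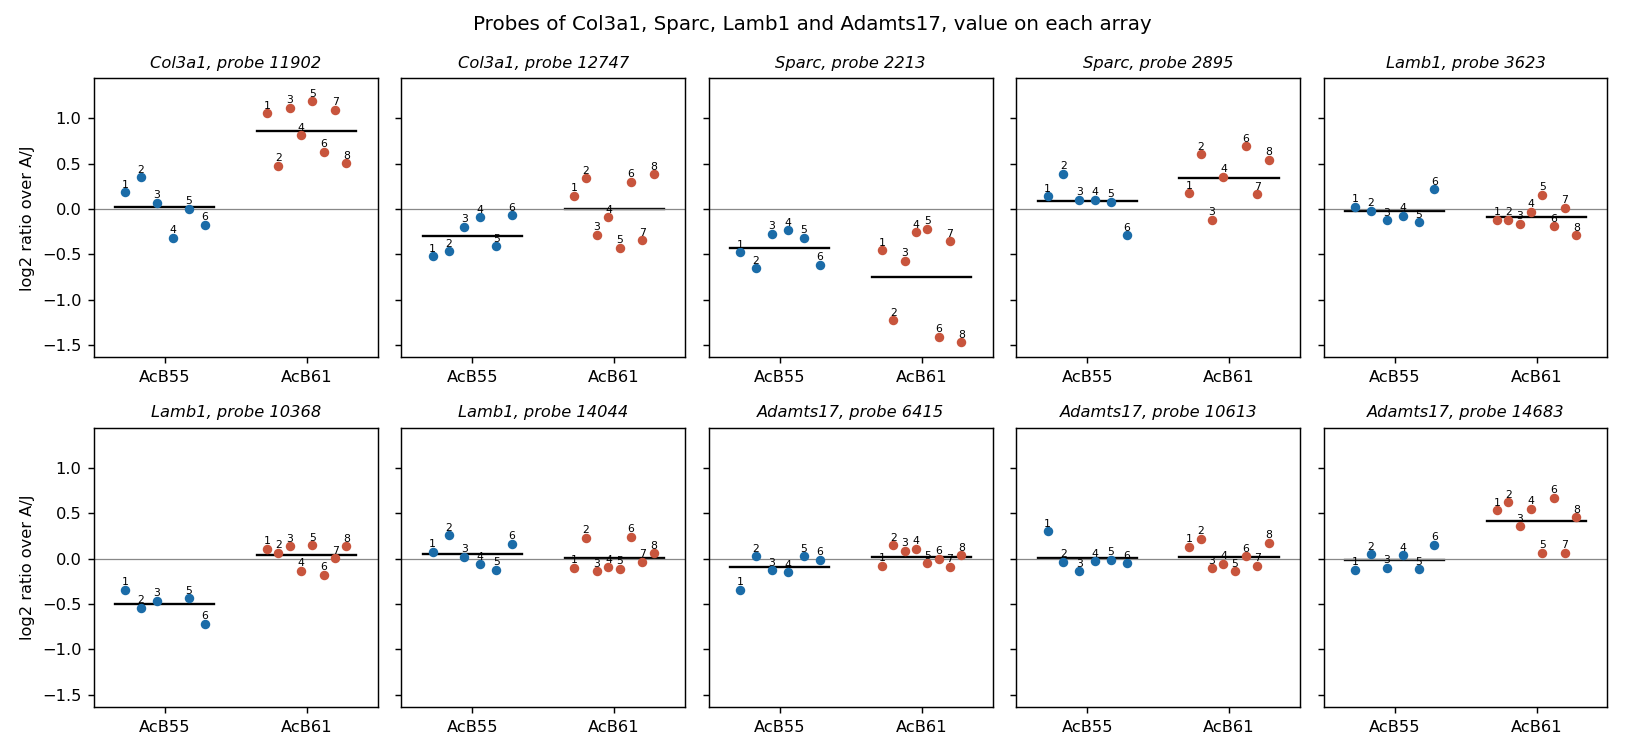
Log2 ratio to A/J by array (y axis) for the single probes of Col3a1, Sparc, Lamb1 and Adamts17 in AcB55 (blue) and AcB61 (red); each number is the replicate, and the line is the mean of the strain. The probes of Sparc have means on opposite sides of 0 in AcB61, and 1 probe each of Lamb1 and Adamts17 lies apart from the other probes of its gene.

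In the basement membrane, 2 of the 10 genes fell in AcB55 and 3 in AcB61, beside 10.9% and 13.3% of all features. Col4a1, the chain of type IV collagen found in nearly every basement membrane, ranged from -0.45 to -0.11 in AcB61 (median -0.27), below A/J on every array, with a mean of -0.28 ± 0.11 (n = 8, limma adjusted p = 0.000418). In AcB55 it ranged from -0.23 to 0.073 (mean -0.035 ± 0.13, n = 6), and the strains differed by -0.24 (95% interval -0.39 to -0.09, adjusted p = 0.0381). Both probes of Col4a1 fell in AcB61, probe 10681 at -0.21 ± 0.26 and probe 15246 at -0.34 ± 0.28, each above 0 on 1 array. They split by set in opposite ways. On replicates 3, 5 and 7 probe 10681 gave -0.059 to 0.11 and probe 15246 gave -0.69 to -0.57. On 2, 6 and 8 they gave -0.64 to -0.35 and -0.26 to 0.14. The SD of their mean, 0.11, was therefore below that of either. Neither probe passed between the strains (limma adjusted p = 0.117 and 0.247). The difference between strains was not called without any one of AcB55 replicates 3 to 6 or of AcB61 replicates 1, 2, 3, 7 and 8 (-0.24 to -0.22, adjusted p = 0.0521 to 0.0961), nor without AcB61 replicates 3, 5 and 7 (-0.22, adjusted p = 0.0708) or the arrays marked b (-0.22, adjusted p = 0.141). Col4a2, its partner chain and neighbour in gene order, was at -0.12 ± 0.20 in AcB61 and -0.055 ± 0.14 (n = 5) in AcB55, and passed in neither with all arrays. Without replicates 3, 5 and 7 it passed in AcB61 (-0.22, adjusted p = 0.0321).

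Nid1, which links laminin to type IV collagen, was at -0.22 ± 0.20 in AcB61 (n = 8, limma adjusted p = 0.0155), with -0.55 to -0.30 in the set of 3, 5 and 7 and -0.14 to 0.057 in that of 2, 6 and 8. Without the first set it was at -0.099 (adjusted p = 0.307), and without replicate 7 alone at -0.18 (adjusted p = 0.0516). Col18a1, the source of endostatin, was at -0.16 ± 0.13 (adjusted p = 0.0309) in AcB61, and was not called without either set or without replicate 2, 7 or 8 alone (-0.16 to -0.12, adjusted p = 0.0568 to 0.101). In AcB55, Col4a5, a type IV chain of specialised basement membranes, was at -0.21 ± 0.15 (n = 6, adjusted p = 0.0408) and Lamb1, a laminin chain, at -0.13 ± 0.066 (adjusted p = 0.0363). The fall of Lamb1 came from 1 of its 3 probes, which was at -0.50 ± 0.14 (n = 5) while the other probes were near 0. The call of Col4a5 was lost without any one of AcB55 replicates 1, 4, 5 and 6 or of AcB61 replicates 1 and 4 (adjusted p = 0.0523 to 0.134), and that of Lamb1 without AcB55 replicate 2, 3, 5 or 6 (adjusted p = 0.0544 to 0.126). Without AcB55 replicates 1 and 2 both were lost (adjusted p = 0.137 and 0.0672), and Lamb1 also without the arrays marked b (adjusted p = 0.126). Without AcB61 replicates 3, 5 and 7, Col4a5 differed between the strains by 0.29 (adjusted p = 0.0222). Lama1, Lama5, Lamc1 and Nid2 passed in neither strain with all arrays, and Lama5 was higher in AcB61 without replicates 3, 5 and 7 (0.21, adjusted p = 0.0341).

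The 8 collagens of other types, which include 4 chains of type VI, had means from -0.15 to 0.063 in AcB55 and from -0.13 to 0.063 in AcB61, and with all arrays did not pass in any comparison. At an unadjusted p of 0.05 the count was also 0 in each (limma). In AcB61 some of them split by set. Col6a1 was at -0.39 to -0.28 on replicates 3, 5 and 7 and at 0.11 to 0.16 on 2, 6 and 8, and passed without the latter (-0.29, limma adjusted p = 0.00604). Col22a1 was at -0.32 to -0.13 and at 0.29 to 0.44 on the same sets, and passed as higher without 3, 5 and 7 (0.23, adjusted p = 0.0256). Col14a1 differed between the strains without 2, 6 and 8 (0.29, adjusted p = 0.038).

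Of the 3 glycoproteins, Sparc fell in AcB61. Its product binds collagen and regulates its deposition, and its means were -0.17 ± 0.14 in AcB55 (n = 6, limma adjusted p = 0.0721) and -0.24 ± 0.17 in AcB61 (n = 8, adjusted p = 0.00507). Its 2 probes had opposite calls in AcB61, one at -0.75 ± 0.53 (adjusted p = 0.000307) and the other at 0.34 ± 0.29 (n = 7, adjusted p = 0.00807), so the direction of Sparc is not settled by these arrays. Without AcB61 replicates 2, 6 and 8 the AcB61 call was lost (-0.15, adjusted p = 0.106) and the AcB55 value passed (adjusted p = 0.0443). Fn1, fibronectin, was at 0.083 ± 0.099 and 0.049 ± 0.14, and Mgp, an inhibitor of calcification, did not pass with all arrays. Without replicates 3, 5 and 7 Mgp was lower in AcB61 (-0.27, adjusted p = 0.0319), and without 2, 6 and 8 it differed between the strains by 0.33 (adjusted p = 0.0421). P4ha1, the catalytic chain of collagen prolyl hydroxylase, was not called with all arrays, at -0.27 ± 0.18 in AcB55 and -0.092 ± 0.50 in AcB61. Its AcB61 values lay at 0.25 to 0.57 on replicates 3, 5 and 7 and at -0.85 to -0.36 on 2, 6 and 8. Without the first set it passed as lower in AcB61 (-0.41, adjusted p = 0.00398), without the second the strains differed by 0.48 (adjusted p = 0.0192), and without either the AcB55 value passed (adjusted p = 0.0284 and 0.0364).

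Of the 7 metalloproteases, 2 fell in AcB55 and 1 rose in AcB61. Mmp23, a membrane-anchored metalloprotease, ranged from -0.75 to -0.21 in AcB55 (median -0.39; mean -0.44 ± 0.19, n = 6, limma adjusted p = 4.99e-05) and from -0.31 to -0.026 in AcB61 (mean -0.14 ± 0.086, n = 8, adjusted p = 0.0535). It lay below A/J on all 14 arrays, and the strains differed by 0.29 (95% interval 0.12 to 0.46, adjusted p = 0.0251), although not without AcB55 replicates 1 and 2 (0.19, adjusted p = 0.0981) or without AcB55 replicate 5 (0.30, adjusted p = 0.0503). The AcB61 value passed without AcB55 replicates 1 and 2 (adjusted p = 0.0193) and without the arrays marked b (adjusted p = 0.0448). Adamts10, a protease of the fibrillin microfibril, ranged from -0.48 to -0.11 in AcB55 (median -0.22; mean -0.26 ± 0.13, n = 6, adjusted p = 0.00219) and was at -0.11 ± 0.11 in AcB61 (adjusted p = 0.106). Adamts17, of the same family, was at 0.15 ± 0.13 in AcB61 (n = 8, adjusted p = 0.0204) and -0.036 ± 0.055 in AcB55. That rise came from 1 of its 3 probes, at 0.41 ± 0.24, and was lost without replicates 2, 6 and 8 (0.086, adjusted p = 0.273), and without replicate 2 (0.13, adjusted p = 0.0654) or 8 (0.14, adjusted p = 0.0509) alone. Without 3, 5 and 7 the strains differed by 0.27 (adjusted p = 0.00765). Mmp7, Adamts4, Adamts12 and the gelatinase Mmp2 passed in neither strain with all arrays, and without replicates 2, 6 and 8 Mmp2 was higher in AcB61 (0.21, adjusted p = 0.0335) and differed between the strains (0.29, adjusted p = 0.0398).

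Of the 3 tissue inhibitors of metalloproteases, 2 fell in AcB61. Timp3, the inhibitor that stays bound to matrix, ranged from -0.88 to 0.098 there (median -0.43) and from -0.098 to 0.27 in AcB55 (median -0.024). The mean was -0.43 ± 0.34 in AcB61 (n = 8, limma adjusted p = 0.00134), 74.2% of A/J, and 0.014 ± 0.13 in AcB55 (n = 6, adjusted p = 0.954). The strains differed by -0.45 (95% interval -0.72 to -0.17, adjusted p = 0.0334), and their ranges overlapped. Both probes fell in AcB61, at -0.39 ± 0.32 and -0.48 ± 0.41. Replicates 3, 5 and 7 gave -0.88 to -0.51 and replicates 2, 6 and 8 gave -0.30 to 0.098. Without the first set AcB61 was still lower than A/J (-0.24, adjusted p = 0.0271), but the difference from AcB55 was not called (-0.25, adjusted p = 0.0884). Nor was it without any one of AcB55 replicates 2 to 6 or of AcB61 replicates 1, 4 and 7 (-0.47 to -0.38, adjusted p = 0.0502 to 0.067), without AcB55 replicates 1 and 2 together (-0.40, adjusted p = 0.0917) or without the arrays marked b (-0.46, adjusted p = 0.0984). Without AcB61 replicates 2, 6 and 8 the difference was -0.64 (adjusted p = 0.000938).

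Timp2, a soluble inhibitor that also takes part in activating pro-MMP2, ranged from -0.57 to -0.17 in AcB61 (median -0.35; mean -0.37 ± 0.13, n = 8, limma adjusted p = 0.000605), below A/J on every array and called without either set. In AcB55 it ranged from -0.55 to 0.11 (mean -0.20 ± 0.26, n = 6, adjusted p = 0.0699). The arrays marked b were the 2 above 0, and without them it was at -0.34 with an adjusted p of 0.00791. Without AcB55 replicates 1 and 2 the strains differed by -0.32 (adjusted p = 0.0225). Timp4 was at 0.13 ± 0.15 and 0.029 ± 0.21.

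**Figure D4:**
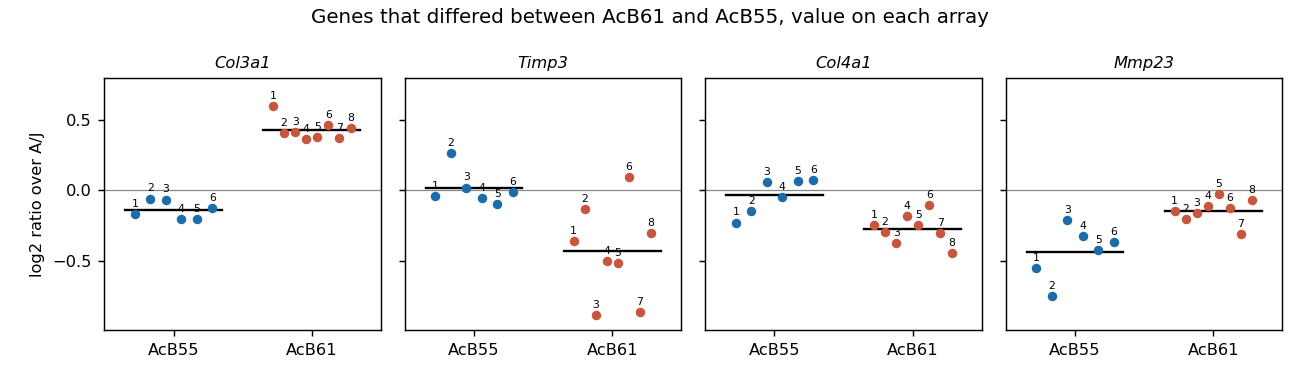
Log2 ratio to A/J on each array for the 4 genes that differed between AcB61 and AcB55; each number is the replicate, and the line is the mean of the strain. Col3a1 is the gene whose strains do not overlap; Timp3 and Col4a1 lie lower in AcB61, and Mmp23 lower in AcB55.

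**Figure D5:**
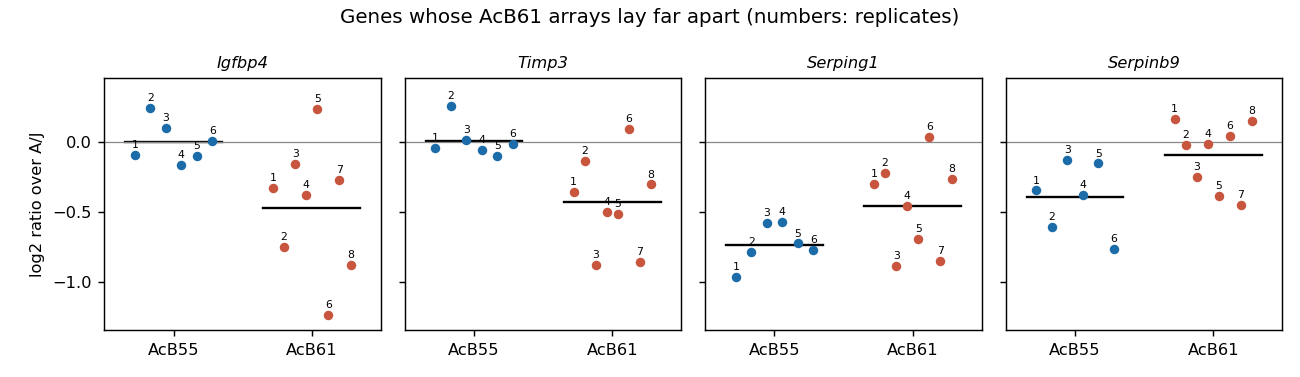
Log2 ratio to A/J on each array (y axis) for 4 genes whose AcB61 values followed the array sets, in AcB55 (blue) and AcB61 (red); each number is the replicate, and the line is the mean of the strain. Timp3, Serping1 and Serpinb9 are lowest in AcB61 on replicates 3, 5 and 7, and Igfbp4 on replicates 2, 6 and 8.

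Genes that act with the matrix were read from lists that the rule did not use. Their calls, and those of the cell markers below, rest on the fit to all arrays and were not followed with arrays left out. Beside the counts of the lists, 10.9% of all features fell and 9.77% rose in AcB55, and 13.3% fell and 10.5% rose in AcB61. The list for signalling by transforming growth factor beta, which drives matrix synthesis, also holds genes of bone morphogenetic proteins, such as Bmp4. Of its 16 measured genes, 7 fell in AcB55 and 6 in AcB61. They included Id3 (-0.78 ± 0.26 and -0.34 ± 0.31), an inhibitor of helix-loop-helix factors, Tgfbi (-0.70 ± 0.20 and -0.37 ± 0.24), a matrix protein that the pathway induces, Smad4 (-0.48 ± 0.19 and -0.23 ± 0.17), its common mediator, and Id2 (-0.47 ± 0.15 and -0.24 ± 0.20). Id3 differed between strains by 0.44 (limma adjusted p = 0.044). Of 21 measured matrix receptors and their partners, 3 fell in AcB55 and 4 in AcB61, not far from the shares of all features that fell. Sdc3, a heparan sulphate syndecan (-0.33 ± 0.11 and -0.26 ± 0.16), and Fermt2, which activates integrins (-0.21 ± 0.15 and -0.30 ± 0.11), fell in both. Itga6 (-0.42 ± 0.33) and Itga5 (-0.31 ± 0.29), the laminin and fibronectin receptor chains, fell in AcB61, and Itgb5 (-0.25 ± 0.19) fell in AcB55.

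Of 24 other genes of collagen synthesis and matrix turnover, 4 fell and 2 rose in AcB55, and 3 fell and 3 rose in AcB61. Adam10, a membrane sheddase (0.48 ± 0.10 and 0.31 ± 0.34), and the lysosomal protease Ctsb (0.44 ± 0.084 and 0.34 ± 0.32) rose in both, and the related Ctsl (-0.41 ± 0.071 and -0.27 ± 0.16) fell in both. Tnc, the matrix protein tenascin C, rose in AcB61 (0.39 ± 0.12). Crtap, of the collagen prolyl 3-hydroxylation complex, fell in AcB55 (-0.32 ± 0.17), was at 0.063 ± 0.17 in AcB61, and differed between strains by 0.38 (limma adjusted p = 0.0129). Emilin1, of elastic fibres, fell in AcB55 (-0.36 ± 0.17) and differed by 0.33 (adjusted p = 0.0249). None of the 6 measured genes of the IGF axis passed in either strain by limma, with 1 at an unadjusted p of 0.05 in each. Of 5 measured serine proteases and coagulation genes, Plat, the tissue plasminogen activator, fell in AcB55 (-0.34 ± 0.38).

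Markers of the cells that make matrix were also lower in part, beside 10.9% of all features lower in AcB55 and 13.3% in AcB61. Of 5 measured markers of fibroblasts and reticular stroma, Cxcl12, the chemokine of reticular cells (-0.75 ± 0.18 in AcB55 and -0.70 ± 0.31 in AcB61), and Tcf21, a factor of splenic mesenchyme (-0.69 ± 0.27 and -0.25 ± 0.29), fell in both strains. The mean of the 5 markers ran from -0.53 to -0.16 on AcB55 arrays and from -0.45 to -0.092 on AcB61 arrays. Of 6 endothelial markers, 2 fell in each strain, with Pecam1 in both (-0.39 ± 0.14, n = 5, and -0.35 ± 0.22), and the list mean ran from -0.28 to -0.037 and from -0.30 to 0.098. Of 4 smooth muscle markers, Myl9 fell in both (-0.54 ± 0.21 and -0.56 ± 0.39) and Tpm2 rose in AcB61 (0.46 ± 0.39), with list means of -0.40 to 0.064 and -0.25 to 0.19.

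Markers of other spleen cells were also called, some from lists with few measured genes. Beside them, 10.9% of all features fell and 9.77% rose in AcB55, and 13.3% fell and 10.5% rose in AcB61. Of 7 macrophage markers, 5 fell in AcB55 and 3 in AcB61, with list means of -0.42 to -0.20 and -0.35 to -0.12. Of 9 markers of red cell precursors, 7 rose in each strain and 1 fell in AcB55, and the list mean ran from 0.44 to 0.67 on AcB55 arrays and from 0.56 to 0.72 on AcB61 arrays. Of 3 granulocyte markers, 1 rose in AcB55 and 2 in AcB61. Of 2 lymphocyte markers, 2 fell in AcB55 and 1 in AcB61, and of 2 platelet markers, 2 fell in AcB61. Selp, which fell in AcB61 (-0.22 ± 0.22), was counted in both the platelet and the endothelial list. Pancreas, liver and fat were each read by 1 gene. Cpa1, an enzyme of exocrine pancreas, ran from -3.58 to 2.37 on the AcB55 arrays (median -2.05, n = 5, limma adjusted p = 0.064) and from -0.89 to 0.48 on those of AcB61. Fga of the liver list did not pass, and Lpl of the fat list fell in AcB61 (-0.16 ± 0.18). The part of these cells, and of the swing of Cpa1 between arrays, in the matrix results was not tested.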

How the data were processed

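Spleen RNA of AcB55 (6) and AcB61 (8) arrays was hybridised against A/J spleen RNA on 2-colour cDNA arrays. The authors deposited a ratio of the channels per feature and array on a log scale, read here as log2; images were quantified with QuantArray 3.0, per the labels, and normalization, log base, centring and the dye of each channel are not given in the sources used here. Values are signed decimals with array medians of -0.0205 to 0.0087, which shows a log scale but not its base; base 2 was assumed, and another would scale every value alike. Spot intensities were not used here, so signal strength is unknown, and the number of arrays limits the precision. Each array gave 14197 to 14588 features.

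Gene names came from the platform annotation, and all 65 member probes matched the reference by gene ID. Probes with several symbols or none were kept as unnamed features. Probes of a gene were averaged per array, and features with a value on fewer than 3 arrays of either strain were left out. limma 3.58.1 (R 4.3.3) fitted a mean per strain on all 14 arrays with eBayes, tested two-sided against 0 and between strains, with Benjamini-Hochberg adjustment over 13045 features. The fit was tested on simulated data with independent arrays. That does not show how it behaves where arrays correlate in sets, as those of AcB61 did. Promoter sequences are RefSeq's (GRCm38.p6). Figures used Python 3.11.15 with matplotlib 3.10.9.

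The members and the lists (matrix receptors, TGF-beta signalling, IGF axis, serine proteases, collagen synthesis and 11 of cell type markers) were chosen with earlier results of these data known. Named in full are the 10 members with the largest mean change among those past the threshold per comparison, and with mean and SD all others past it; members named without passing were chosen after their values were seen. In each list up to 4 called members are named. The alternatives were centring, scaling, coverage, single probes, each strain alone, array weights, robust eBayes and leaving out arrays; leaving out the AcB61 sets was chosen after seeing the data.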

Additional observations from a re-analysis of the deposited data

Results flagged for a closer look

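The strains differed in 4 genes by the test between them (limma, adjusted over all features): Col3a1 by 0.57, Mmp23 by 0.29, Timp3 by -0.45 and Col4a1 by -0.24, each AcB61 minus AcB55 on the log2 scale. Of these, Col3a1 kept its call in every alternative that compared the strains, although with single probes 1 of its 2 probes carried it and the other did not pass.

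Single arrays stood far from the rest of their strain in 9 of 106 such checks (Dixon's test). For independent, normally spread arrays the rate is about 1 in 20. The checks share arrays, and those of AcB61 correlated in sets, so no excess over that rate can be read from this count. In AcB55, replicate 1 was high for Col14a1 (0.17, others -0.30 to -0.16) and for Mmp2 (0.092, others -0.16 to -0.067). Replicate 2 was low for Col2a1 (-0.64, others -0.17 to 0.052) and high for Nid2 (0.30, others -0.17 to -0.002) and Timp3 (0.27, others -0.098 to 0.021). Replicate 3 was high for P4ha1 (0.073, others -0.48 to -0.28), and replicate 6 low for Sparc (-0.45, others -0.17 to -0.069). In AcB61, replicate 1 was high for Col3a1 (0.60, others 0.36 to 0.46) and replicate 7 low for Serpina1e (-0.70, others -0.28 to -0.039). For Col3a1 this held only for the mean of its 2 probes, which ran opposite to each other. By single probes replicate 1 lay inside the range of the AcB61 arrays, at 1.05 (0.47 to 1.19) for probe 11902 and 0.14 (-0.43 to 0.38) for probe 12747.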

How the results depend on the processing

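Over 26 alternatives, 14 of which left out 1 array each, no call made on the mean of a gene's probes turned to the other direction, while single probes of Sparc had opposite calls in AcB61. In AcB55, 9 of 13 calls were kept in every alternative that tested the gene (Adamts10, Bgn, Dcn, Igfbp3, Igfbp5, Mmp23, Serpinb1a, Serpinb9 and Serping1), in AcB61 8 of 18 (Bgn, Col3a1, Col4a1, Dcn, Igfbp3, Serping1, Timp2 and Timp3), and between the strains 1 of 4 (Col3a1). Igfbp3 and Bgn, each without a value on 1 array, were not tested where a value on all arrays was asked for, and Sparc in AcB61 and Col4a1 between the strains lost their calls with single probes. There a gene counted as called when any of its probes was and none the other way, and Col3a1 kept its calls by 1 of its 2 probes each. Leaving out 1 array at a time gave 9 to 14 called in AcB55 (0 to 1 higher, 9 to 13 lower), 15 to 20 in AcB61 (2 to 3 higher, 12 to 17 lower) and 1 to 6 between the strains (1 to 3 higher, 0 to 3 lower). By the same fits Col1a2, Col3a1, Col4a5 and Lamb1 lost a call in AcB55, Adamts17, Col18a1, Serpina1e and Nid1 in AcB61, and Col4a1, Timp3 and Mmp23 between the strains. Serpinb11 was the 1 gene higher in AcB55 under centring, scaling, a value on all arrays, single probes, each strain alone, without the arrays marked b, without AcB61 replicates 3, 5 and 7 and without 2, 6 and 8. Between the strains, single probes gave 4 higher and 1 lower, array weights 8 called and 5 higher, the fit without AcB55 replicates 1 and 2 gave 1 higher, and that without the arrays marked b gave 0 lower. Without AcB61 replicates 3, 5 and 7, 6 genes were higher in AcB61, and 8 differed between strains, 7 higher and 1 lower. Without 2, 6 and 8, 11 were called in AcB61, 9 of them lower, and 10 differed between strains, 7 of them higher. The share of all features called was not taken in any of these alternatives. The counts therefore have nothing to be set beside, and their changes cannot be read as particular to the 53 genes. The cause of these changes was not tested. No paired analysis was possible because the labels number no replicates across the strains. Col3a1 was not called in AcB55 with arrays scaled alike (-0.14, adjusted p = 0.151). Spot intensities were not used, so dim spots could not be set apart.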
